A study of Mus musculus with 36 samples.

Results

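The arrays described here are those titled hippocampus at 8 weeks: 3 arrays of Dicer conditional knockout (cKO) mice and 3 arrays of control mice, or 6 of the 36 arrays of the series. They were chosen by sample title alone, with no measured value. All 6 mice were of the C57BL/6J strain, were injected as adults of 8 weeks of age, and carried a tamoxifen-inducible Cre recombinase driven by the Camk2a promoter (Camk2a-CreERT2) and both Dicer alleles flanked by loxP sites. The cKO mice had received tamoxifen into the peritoneum on 5 days, whereas the control mice, of the same genotype, had received the vehicle of sunflower seed oil and ethanol, 8 weeks before the tissue was taken, so that the deletion and the exposure to tamoxifen cannot be told apart in this comparison. Cre is made in cells that use the Camk2a promoter, that is mainly forebrain excitatory neurons, and recombination in other cells, such as glia, vessels and ependyma, is not foreseen by the design. Which cells had recombined was not measured on these arrays. The other 30 arrays were of cortex and hypothalamus at 4 and 8 weeks and of hippocampus at 4 weeks, with 3 arrays per group.

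DICER cuts microRNA hairpins to the mature microRNAs, which, loaded on Argonaute proteins, pair through their seed with target mRNAs and lower their stability and translation. Loss of DICER thereby frees targets from repression in the cells that lose it. The hippocampus is built of glutamatergic pyramidal neurons of the CA fields and granule neurons of the dentate gyrus, with interneurons and glia around them, and the pyramidal and granule neurons are the cells in which a Camk2a-driven Cre acts.

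Several defining markers of the labelled tissue were low in all but 1 of these arrays. Of 12 markers of hippocampal neurons, all 12 were highest in cKO replicate 1 among the 6 arrays, and 6 of them did not exceed 4.78 (log2) in the other 5. Neurod6, a transcription factor of forebrain pyramidal neurons, was at 9.05, 2.68 and 3.12 (log2 RMA level) in cKO arrays and at 2.90, 3.31 and 3.01 in control arrays. Slc17a7, the vesicular glutamate transporter of cortical and hippocampal neurons, was at 7.56, 4.00 and 3.74 in cKO arrays and at 3.86, 4.01 and 3.97 in control arrays. In both genes the other 5 arrays lay close together and far below cKO replicate 1. In the cortex arrays of the series the same probe set lay between 9.19 and 9.52, although each tissue had been normalized separately and levels between tissues are given only as a description. Dsp, a desmosomal protein used as a marker of dentate granule neurons, was at 8.11, 3.58 and 3.47 in cKO arrays, against 3.25, 3.69 and 3.36 in control arrays. Spink8, a marker of CA1 neurons, was at 8.36, 3.57 and 3.60 in cKO arrays and at 3.74, 3.82 and 3.52 in control arrays. For Prox1, the transcription factor that defines granule neurons, cKO arrays were at 6.25, 4.61 and 4.74 and control arrays at 4.48, 4.78 and 4.02. The other 6 markers were measured in all arrays, such as Bok at 9.75, 8.59 and 8.65 in cKO arrays and at 8.69, 8.64 and 8.60 in control arrays. The 6 hippocampus arrays of 4 weeks resembled the low arrays: over all 11 arrays other than cKO replicate 1, Neurod6 did not exceed 3.31, Slc17a7 4.41, Dsp 3.69 and Spink8 3.82.

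Instead, all 6 arrays carried genes that the adult hippocampus is not known for. A set of transcription factors known from the midbrain, picked after their values had been seen, was high throughout. Otx2 was at 8.61, 8.97 and 8.93 in cKO arrays and at 8.66, 8.34 and 8.88 in control arrays, whereas it lay between 2.06 and 3.53 in the cortex arrays. Pax7, a marker of the dorsal midbrain, was at 8.10, 8.29 and 8.29 in cKO arrays, against 8.00, 7.85 and 8.00 in control arrays and between 2.04 and 3.35 in the cortex arrays. Tfap2b, Pou4f1 and Gata3 likewise lay between 6.63 and 8.79 in the 6 arrays and between 2.21 and 4.10 in the cortex arrays. Lhx9 was lower in cKO replicate 1, at 7.75, than in the other 5 arrays, where it lay between 9.06 and 9.40. En2, of the same set, was likewise lower there, at 6.69 against 7.38 to 7.91. By these markers, the label of hippocampus fitted cKO replicate 1 in part, which showed both sets of genes, and went against the data of the other 5 arrays. No other tissue is assigned to them here, and every comparison below was computed with and without cKO replicate 1.

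**Figure D1:**
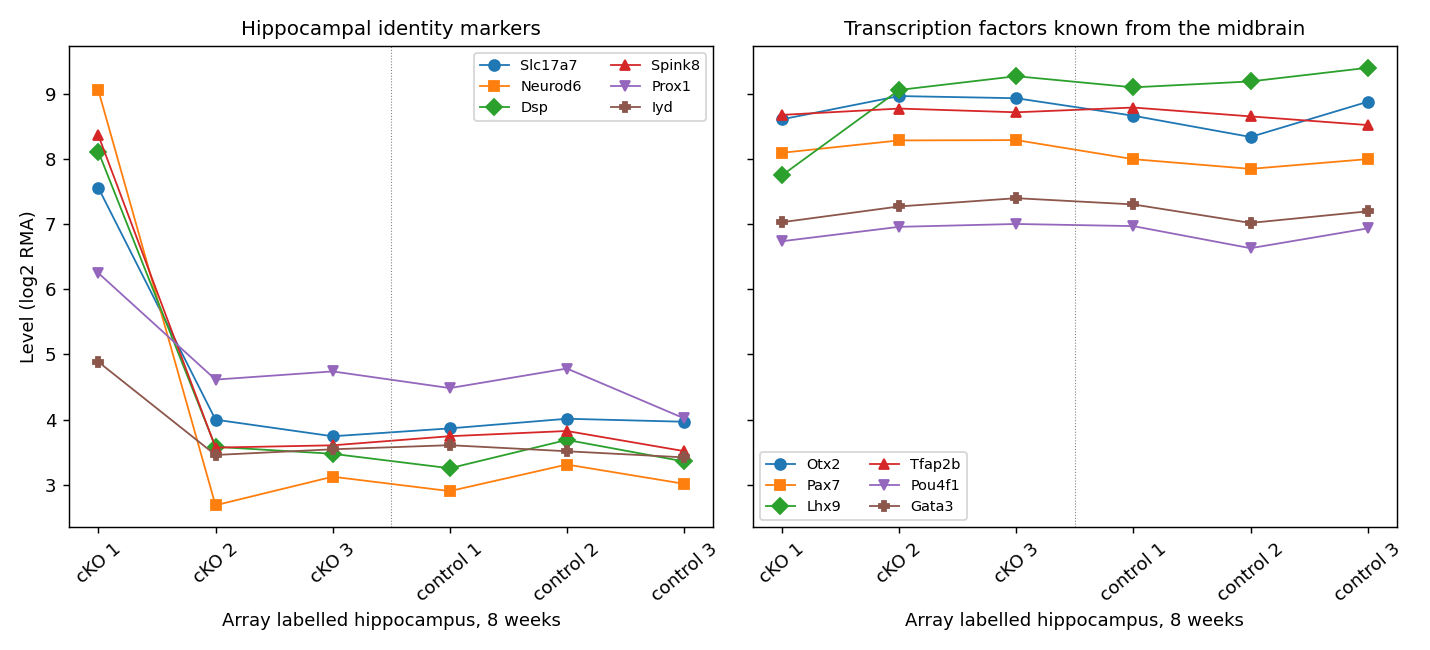
Level (log2 RMA, vertical axis) of 6 hippocampal identity markers (left) and 6 transcription factors known from the midbrain (right, chosen after their values were seen) in the 3 cKO arrays and the 3 control arrays labelled hippocampus at 8 weeks; lines join the values of 1 gene. The hippocampal markers were high in cKO replicate 1 only, with Neurod6 at 9.05 there and at most 3.31 in the other 5 arrays, whereas Otx2 was between 8.34 and 8.97 in all 6.

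The array of cKO replicate 1 also stood apart over all genes. Of 14628 genes tested, 199 were more than 1 log2 unit above and 33 more than 1 below the mean of the other 5 arrays, whereas each of the other arrays had between 2 and 17 such genes above and between 1 and 11 below. Its correlation with the others was 0.979 to 0.983 over genes, against a best correlation of 0.993 to 0.995 for each of them. Among the genes highest in cKO replicate 1 were Ddn, encoding dendrin, a postsynaptic protein, and Itpka, a kinase of dendritic spines. Ddn was at 11.9 in cKO replicate 1 and between 7.45 and 7.88 in the other 5 arrays, and Itpka at 8.92 against 4.90 to 5.28. Ttr, the thyroid hormone carrier made by the choroid plexus, was at 11.8 there and between 5.28 and 8.32 in the others. Among the genes lowest in it were Tpbg, at 5.33 against 8.03 to 8.51, and Tcf7l2, a transcription factor prominent in thalamus and midbrain, at 6.11 against 8.13 to 8.44.

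Dicer1 itself did not separate the groups. Its tested probe set was at 6.71, 6.56 and 6.53 in cKO arrays and at 6.75, 6.49 and 6.45 in control arrays, with means of 6.60 ± 0.10 and 6.56 ± 0.16 (SD, n = 3 each). The groups overlapped, with a difference of 0.03 on the log2 scale. The second probe set of the gene averaged 8.56 ± 0.04 in cKO arrays and 8.52 ± 0.06 in control arrays. Whether either probe set lies in the floxed exon was not determined here, and neither shows whether the gene had been recombined. In hippocampus the study reported the recombined allele by PCR. It also reported Dicer mRNA that seemed lower there in few mice, measured at an exon outside the deleted one. In the same tissue it found significantly more splicing that joins the exons on either side of the deleted one. Neither probe set averaged lower in cKO arrays here, and the reason was not tested. Camk2a, whose promoter drives Cre, was at 11.8, 10.4 and 10.5 in cKO arrays and at 10.4, 10.1 and 10.4 in control arrays by its probe set of the highest mean.

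No gene passed the FDR of 15% used by the study, with 0 of 14628 genes called (0%) by limma with Benjamini-Hochberg adjustment and a lowest adjusted p of 0.446. At an unadjusted p under 0.05 there were 340 genes higher in cKO arrays (2.32% of those tested) and 523 lower (3.58%), together 863, where a flat distribution of p would give 731. Without cKO replicate 1, again 0 genes passed (0%), and 267 were higher (1.83%) and 470 lower (3.21%) at an unadjusted p under 0.05. Of the 340 higher genes 134 were also at p under 0.05 in the same direction without that array, and of the 523 lower genes 259. The values of all 3 cKO arrays lay above all 3 control arrays for 834 genes (5.70%) and below them for 1275 (8.72%). The median difference over all genes was -0.02 and the median standard error of a difference 0.12. The p-values and standard errors come from 1 fit of the 12 arrays labelled hippocampus. They rest on the spread among 3 mice per group, pooled over its 4 groups and shared in part across genes. In tissue RNA fewer cells of a type cannot be told apart from less RNA per cell. The genes named from here on were therefore not shown to have changed, and their differences are given with the arrays behind them.

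The genes with the lowest p in cKO arrays below control arrays differed by 0.34 to 0.60 log2 units and had similar differences without cKO replicate 1. Endou, a poly(U)-specific endoribonuclease, was at 4.42, 4.58 and 4.56 in cKO arrays, against 5.05, 4.98 and 5.09 in control arrays. The groups did not overlap, and the difference of -0.52 ± 0.09 (SE) had the lowest p of all genes (limma, unadjusted p = 9.47e-05, adjusted p = 0.446). All 3 cKO values of Endou lay below 4.6, the level used to filter genes, and its second probe set gave -0.19. Edn1, which encodes the vasoconstrictor peptide endothelin-1, was at 6.46, 6.46 and 6.22 in cKO arrays, against 7.05, 6.77 and 6.98 in control arrays. Its difference was -0.55 ± 0.10 with all arrays and -0.59 without cKO replicate 1. Scd3, a stearoyl-CoA desaturase that introduces a double bond into fatty acids, was at 5.11, 5.03 and 5.07 in cKO arrays and at 5.66, 5.77 and 5.57 in control arrays, a difference of -0.60 ± 0.11. All 3 cKO values of Scd3 were thus below the lowest control. Its relative Scd1 was at 5.35, 5.92 and 5.72 in cKO arrays, against 6.08, 6.24 and 6.17 in control arrays. For Scd1 the difference was -0.50, and -0.20 by another probe set of that gene. Lifr, the receptor subunit for leukemia inhibitory factor, was at 4.85, 4.84 and 4.84 in cKO arrays and at 5.20, 5.40 and 5.21 in control arrays. The difference of Lifr was -0.43 ± 0.08, and its second probe set gave -0.14.

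Others of the 12 lowest p in this direction were Krt222, a keratin-related protein (-0.44 ± 0.08), Pigq, an enzyme of glycosylphosphatidylinositol anchor synthesis (-0.49 ± 0.10), Sema3g, a secreted semaphorin made by arterial endothelium (-0.40 ± 0.09), Mapkapk3, a kinase downstream of p38 (-0.49 ± 0.11), and Dffb, the nuclease that cuts DNA in apoptosis (-0.34 ± 0.08). Medag, Aplp2 and Nudt12 completed them at -0.35, -0.53 and -0.35. In each of these the groups were apart. The sign in Pigq and Aplp2, a homologue of the amyloid precursor protein, depended on the probe set: the probe set of the highest mean gave 0.01 for Pigq and 0.12 for Aplp2. A second probe set gave a smaller difference of the same sign in Mapkapk3 (-0.06), Dffb (-0.10), Krt222 (-0.18) and Medag (-0.23). Mapkapk3 was also near the level filter of 4.6, at 4.26, 4.61 and 4.41 in cKO arrays.

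The genes with the lowest p in the other direction included components of motile cilia. Ttll3, a glycine ligase that modifies axonemal tubulin, was at 6.44, 6.60 and 6.37 in cKO arrays, against 5.75, 5.86 and 5.88 in control arrays. The groups were apart and the difference was 0.64 ± 0.12 (limma, unadjusted p = 0.000221, adjusted p = 0.446), or 0.66 without cKO replicate 1. Ddo, D-aspartate oxidase, which degrades D-aspartate, was at 6.10, 6.16 and 6.25 in cKO arrays and at 5.75, 5.71 and 5.74 in control arrays, a difference of 0.43 ± 0.09. No cKO value of Ddo lay below 6.10 and no control value above 5.75. Ak7, an adenylate kinase of cilia, was at 6.19, 6.14 and 6.21 in cKO arrays, against 5.63, 5.55 and 5.83 in control arrays, a difference of 0.51 ± 0.11. Tada1, a subunit of a histone acetyltransferase complex, was at 6.90, 6.95 and 6.72 in cKO arrays and at 6.50, 6.37 and 6.09 in control arrays. The groups of Tada1 were apart at a difference of 0.54, but its other probe set had one of -0.06.

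Ralgapa1 (0.46), Cdc40 (0.49), 1700094D03Rik (0.46), Slc25a30 (0.49), Zfp207 (0.76), Clip1 (0.42), Ppt1 (0.34) and Tbccd1 (0.36) made up the 12, all with groups apart. By the probe set of the highest mean the differences were, in the same order, 0.07, 0.27, -0.03, 0.21, 0.01, 0.16, -0.06 and 0.19. All control values of Tbccd1, at 4.51, 4.46 and 4.24, lay below the filter level of 4.6, as did control replicates 1 and 3 of Ralgapa1, at 4.59 and 4.42. For Zfp207, a zinc finger protein, the cKO values were uneven, at 6.15, 5.75 and 5.26 in cKO arrays against 5.03, 4.94 and 4.91 in control arrays, and without cKO replicate 1 the difference was 0.54. Of the 24 genes of both directions, 19 had more than 1 probe set past the filter, and 8 of these had a probe set of the opposite sign. Of the 24, the largest p without cKO replicate 1 was that of Clip1, a microtubule plus-end protein, at an unadjusted p of 0.0173 in limma.

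**Figure D2:**
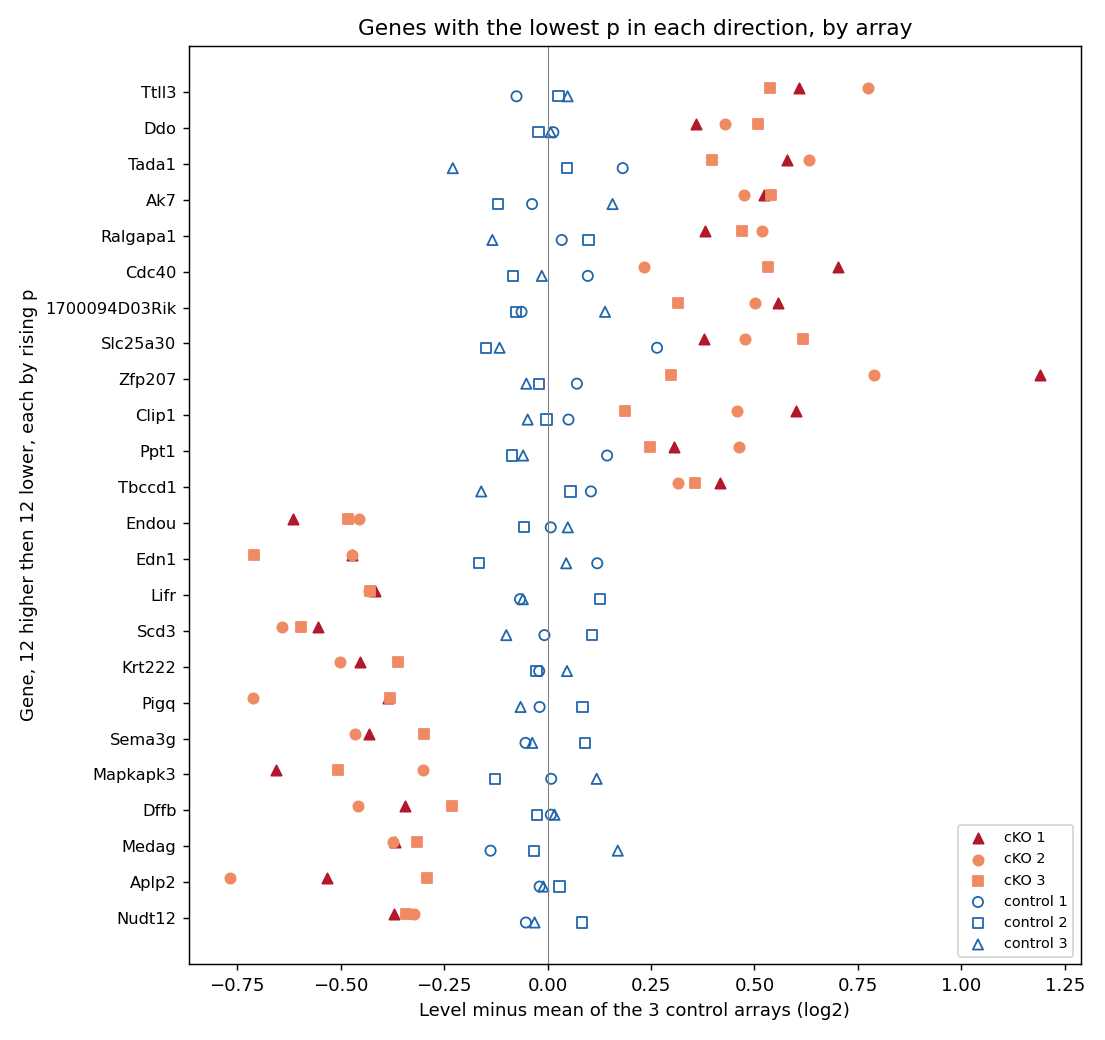
Level of each of the 24 genes with the lowest p (12 higher, then 12 lower in cKO) in each array, as the difference from the mean of the 3 control arrays (log2, horizontal axis); filled red and orange symbols are cKO arrays and open blue symbols control arrays. In all 24 the groups were apart, for example with Scd3 at 5.03 to 5.11 in cKO arrays and at 5.57 to 5.77 in control arrays.

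The largest differences with groups apart were of another kind. Of the 8 genes with the largest differences above control, 6 were far higher in cKO replicate 1 than in the other cKO arrays. Sstr4, a somatostatin receptor, was at 8.85, 6.79 and 6.89 in cKO arrays, against 6.78, 6.68 and 6.51 in control arrays, so that a difference of 0.85 became 0.19 without cKO replicate 1. Neurod1, a transcription factor of granule neurons, was at 6.90, 4.79 and 4.94 in cKO arrays and at 4.74, 4.74 and 4.49 in control arrays, and its difference of 0.89 became 0.21. Epha4, Ntrk3, Pde1a and Zeb2 had differences of 0.95, 0.87, 0.84 and 0.79 with it and of 0.38, 0.56, 0.39 and 0.45 without it. Ddx6, an RNA helicase of processing bodies that takes part in microRNA-mediated repression, did not rest on that array. It was at 9.03, 9.08 and 8.63 in cKO arrays, against 8.23, 7.87 and 7.71 in control arrays, with a difference of 0.98 ± 0.32, and of 0.92 without cKO replicate 1. Its probe set of the highest mean had a difference of -0.11.

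Among those lower, Dmp1, a secreted phosphoprotein of the mineralized matrix, was at 5.73, 6.47 and 6.33 in cKO arrays and at 7.12, 6.74 and 7.26 in control arrays. Its 3 probe sets all pointed the same way, with differences of -0.86, -0.72 and -0.51. Grp, gastrin-releasing peptide, was at 7.04, 7.71 and 7.62 in cKO arrays, against 8.21, 8.08 and 8.22 in control arrays, and its difference of -0.71 became -0.50 without cKO replicate 1. Ctxn3, a small neuronal membrane protein, was at 6.55, 6.53 and 6.08 in cKO arrays and at 7.18, 7.45 and 6.63 in control arrays (-0.70), and Klk6, a secreted protease of oligodendrocytes, at 7.88, 7.56 and 7.74 in cKO arrays and at 8.56, 8.35 and 7.97 in control arrays (-0.57).

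Without cKO replicate 1, the genes with the lowest p were led by Fbxo32, the muscle atrophy ubiquitin ligase atrogin-1. It was at 7.98, 7.30 and 7.19 in cKO arrays, against 7.92, 8.00 and 7.90 in control arrays, so that replicate 1 was at the level of the control arrays and the others lay below it. The difference of Fbxo32 was -0.70 without that array (limma, adjusted p = 0.532), against -0.46 with it. The other 2 probe sets of Fbxo32 had differences of 0.15 and 0.01 with all arrays. Gh, growth hormone, was at 5.52, 6.13 and 6.36 in cKO arrays and at 5.49, 5.62 and 5.63 in control arrays, and its difference was 0.66 without replicate 1. Pigq, Edn1, Lifr, Scd3, Endou, Ddo and Ttll3 were among the 12 lowest p in this comparison as well.

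Genes of the microRNA pathway had differences of both signs. Of 15 genes for the enzymes and effectors, 0 were higher and 1 was lower (6.67%) at an unadjusted p under 0.05, beside 2.32% and 3.58% of all genes. Of the 15, 4 (26.7%) lay above all control arrays and 2 (13.3%) below them, beside 5.70% and 8.72% of all genes, and the median difference was -0.00 beside -0.02 for all genes. The lower one was Tnrc6a, a scaffold that links Argonaute to deadenylation, at 8.81, 9.11 and 9.10 in cKO arrays, against 9.24, 9.32 and 9.35 in control arrays. It had a difference of -0.29, and its probe set of the highest mean one of 0.06. Ago2, the Argonaute protein that can slice its target, was at 8.53, 8.83 and 8.62 in cKO arrays and at 8.42, 8.05 and 7.99 in control arrays. The groups were apart at a difference of 0.51, whereas the other 3 probe sets of Ago2 had differences of 0.03, 0.09 and 0.16. Ago4, Ago3 and Tnrc6b also lay above the controls in all arrays, at 0.25, 0.16 and 0.31. Drosha and Dgcr8, which release the hairpin in the nucleus, and Xpo5, which exports it, were at 0.09, -0.05 and 0.05.

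The microRNAs whose targets were followed were let-7, miR-9, miR-132, miR-29 and miR-124. The seed of each, bases 2 to 8, decides which mRNAs it pairs with. No mature sequence of miR-124 was at hand, and the first 4 are shown with seeds in capitals (mouse sequences of RefSeq, GRCm38.p6).
let-7a-5p: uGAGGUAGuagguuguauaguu
miR-9-5p: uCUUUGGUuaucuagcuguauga
miR-132-3p: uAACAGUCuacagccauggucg
miR-29a-3p: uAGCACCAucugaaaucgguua
The 4 seeds differ, so the lists below are of different families; let-7a stands for the let-7 family and miR-29a for the miR-29 family.

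Known targets of the 5 microRNAs had medians between 0.00 and 0.14. Of 14 measured targets of let-7, 8 had a positive and 6 a negative difference, with a median of 0.03, and 0 were at an unadjusted p under 0.05 in either direction. The let-7 target with the lowest p was Arid3a, a DNA-binding protein, at -0.17. The 7 targets of miR-9 had a median of 0.14, again with 0 at p under 0.05. Among them Rest, the repressor of neuronal genes, was at 6.48, 6.16 and 6.39 in cKO arrays and at 6.33, 6.09 and 5.81 in control arrays, and the groups overlapped. The 8 targets of miR-132 had a median of 0.06 and the 20 of miR-29 one of 0.03. The 1 of these below p 0.05 was Tet3, a DNA demethylase, or 1 of the 20 targets of miR-29 (5%), beside 2.32% of all genes higher. Tet3 was at 7.88, 7.87 and 7.64 in cKO arrays, against 7.78, 7.16 and 7.16 in control arrays. Its difference was 0.43, with cKO replicate 3 below control replicate 1. The 14 targets of miR-124 had a median of 0.00, with 7 positive and 7 negative. The 9 host transcripts of microRNAs had a median of 0.08. Without cKO replicate 1 the median was -0.03 for let-7 and 0.15 for miR-9. The probe sets measure tissue RNA of all cells, of which those with recombined Dicer were an unknown share.

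The largest medians by list were those of excitatory and CA1 neurons, and they rested on 1 array. Of 14 tested genes of excitatory neurons, 12 had a positive difference and their median was 0.40. By array the median over these genes, relative to the control mean, was 1.02, -0.01 and 0.02 in cKO arrays and -0.05, -0.05 and 0.08 in control arrays. Without cKO replicate 1 the median was 0.02, with 8 of 14 positive. The 7 other listed genes were not tested, among them Slc17a7 and Neurod6, which passed the filter of 4.6 in 1 array only. Gria1, a subunit of AMPA receptors, was at 11.1, 10.2 and 10.2 in cKO arrays, against 10.0, 9.83 and 9.82 in control arrays. It was the member with the lowest p, with a difference of 0.60, and 0.29 without that array. Genes of CA1 pyramidal neurons had a median of 0.35 with array values of 0.86, -0.06 and 0.01 in cKO and of -0.01, 0.03 and 0.03 in control, and one of 0.01 without cKO replicate 1. Activity-induced genes, such as Nr4a2, at 8.60, 4.72 and 4.54 in cKO arrays and at 4.75, 4.93 and 4.10 in control arrays, had a median of 0.10 with that array and of -0.12 without it. Among them Dusp1, a phosphatase induced by activity and stress, had a difference of -0.40 without it, at an unadjusted p of 0.00263 in limma.

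Postsynaptic partners of AMPA receptors showed the same dependence. Their median was 0.23, with 3 of 24 genes higher (12.5%) and 0 lower at an unadjusted p under 0.05, beside 2.32% and 3.58% of all genes. Without cKO replicate 1 the median was 0.05, with 0 genes in either direction, beside 1.83% and 3.21%. Dlg4, the scaffold PSD-95, was at 9.96, 10.1 and 9.80 in cKO arrays and at 9.73, 9.64 and 9.68 in control arrays. All 3 cKO values were above control, and the difference of 0.26 was 0.25 without that array. Inhibitory interneuron genes had a median of -0.07. Of these, Tac1, the precursor of substance P, was at 10.2, 10.5 and 10.6 in cKO arrays and at 10.8, 10.6 and 10.7 in control arrays (-0.29).

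**Figure D3:**
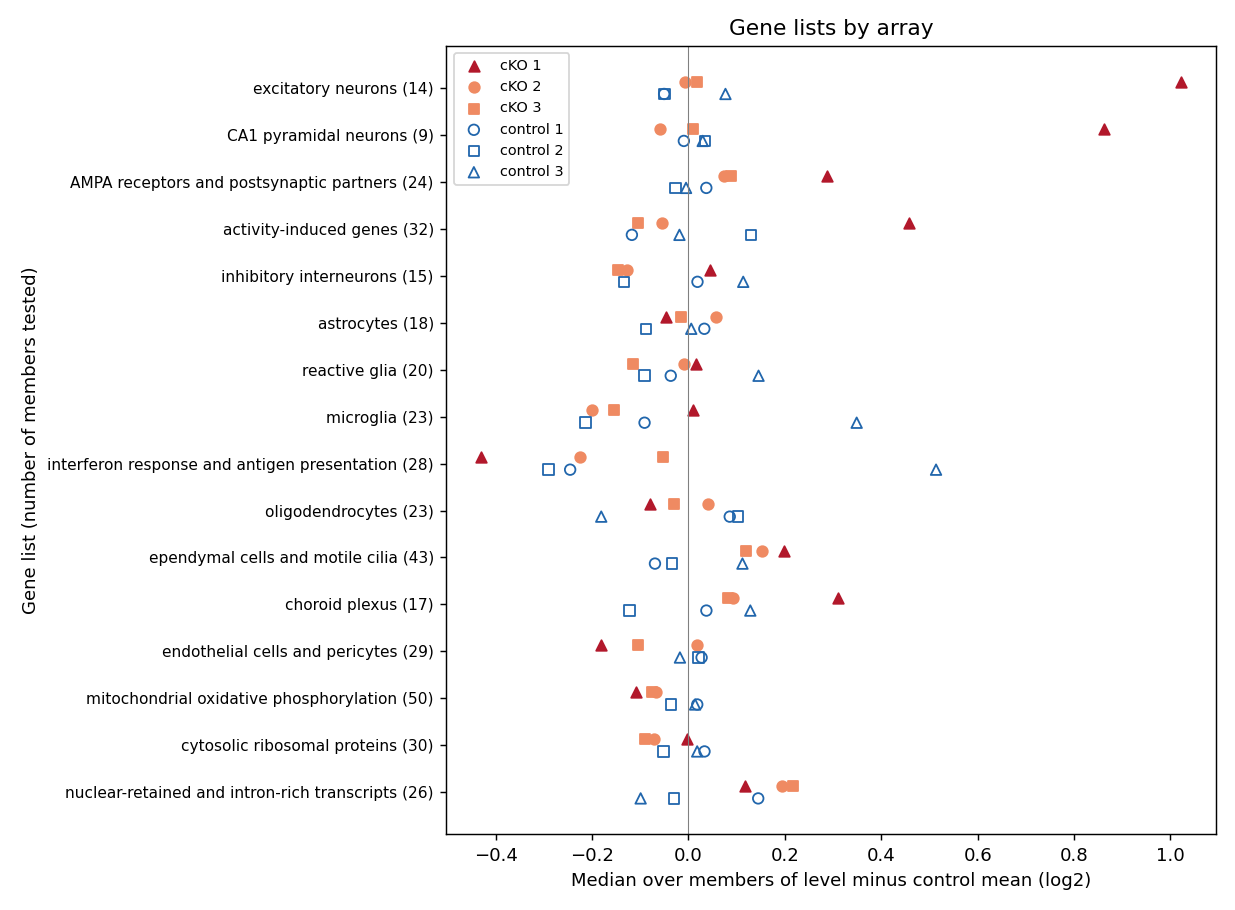
Median over the tested members of each gene list of the level minus the mean of the 3 control arrays (log2, horizontal axis), for each array; filled symbols are cKO arrays, open symbols control arrays, and the number of members is in brackets. Excitatory and CA1 neuron genes were high in cKO replicate 1 alone (1.02 and 0.86), and microglial and interferon genes in control replicate 3 alone (0.35 and 0.51).

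Genes of ependymal cells and motile cilia were mostly of positive difference. Of 43 tested, 36 had a positive difference, 8 were higher (18.6%) and 0 lower at an unadjusted p under 0.05, beside 2.32% and 3.58% of all genes, and 6 (14%) were above all control arrays, beside 5.70%. Their median difference was 0.14, and 0.12 without cKO replicate 1. Without that array 34 of 43 were positive and 4 of 43 were higher at p under 0.05, beside 1.83% of all genes. Besides Ttll3 and Ak7, Dnah6, a dynein heavy chain, was at 4.92, 4.98 and 4.91 in cKO arrays, against 4.46, 4.66 and 4.71 in control arrays, a difference of 0.33. Tekt1, a filament protein of the axoneme, was at 5.11, 5.42 and 5.20 in cKO arrays and at 4.93, 4.35 and 4.77 in control arrays, a difference of 0.56. Iqca was at 6.20, 5.84 and 5.47 in cKO arrays and at 5.19, 5.47 and 5.30 in control arrays. Its lowest cKO value lay just above the highest control, and the difference of Iqca was 0.52, and 0.34 without cKO replicate 1. Dynlrb2, a dynein light chain, and Tmem212, an ependymal membrane protein, overlapped between groups, with control replicate 3 above the lowest cKO array. Tmem212 was at 6.70, 6.56 and 6.03 in cKO arrays, against 5.55, 4.93 and 6.38 in control arrays. Foxj1, the master regulator of motile cilia, had a difference of 0.12. By array, the median of the list was 0.20, 0.15 and 0.12 in cKO arrays and -0.07, -0.03 and 0.11 in control arrays, so that control replicate 3 nearly reached the lowest cKO array. At 4 weeks the same list had a median of 0.18, with differences of -0.46 for Ttll3, 0.42 for Ak7 and 0.30 for Dnah6. Choroid plexus genes, which border the ependyma, had a median of 0.21, and 0.10 without cKO replicate 1. Ttr, a main product of the choroid plexus, was at 11.8, 7.44 and 7.81 in cKO arrays and at 8.32, 5.28 and 6.92 in control arrays. Whether the amount of ventricular lining in the dissected tissue differed was not tested.

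The promoters of cilia genes often hold an X-box, to which RFX transcription factors bind, and the windows of 2 list members, Iqca and Dnali1, are shown with it. A stretch of the X-box, GTTNCCNNG, was searched on both strands from 250 bases before to 50 after the start in RefSeq's windows (GRCm38.p6), with overlapping matches merged. It was in 22 of 36 cilia genes with a window (61.1%), in 4 of the 8 members at an unadjusted p under 0.05, in 21.6% of 11388 tested genes with a window and in 16.6% of all 32851 windows. Matches are in capitals. The Iqca window is chr1:90153387-90153686 and that of Dnali1, a dynein light intermediate chain, chr4:125065608-125065907, both on the minus strand.
Iqca: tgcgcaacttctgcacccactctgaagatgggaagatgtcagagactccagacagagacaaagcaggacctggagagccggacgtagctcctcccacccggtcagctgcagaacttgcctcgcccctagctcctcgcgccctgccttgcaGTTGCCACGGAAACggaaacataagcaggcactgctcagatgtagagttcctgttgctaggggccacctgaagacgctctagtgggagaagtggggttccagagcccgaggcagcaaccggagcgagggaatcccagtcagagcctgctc
Dnali1: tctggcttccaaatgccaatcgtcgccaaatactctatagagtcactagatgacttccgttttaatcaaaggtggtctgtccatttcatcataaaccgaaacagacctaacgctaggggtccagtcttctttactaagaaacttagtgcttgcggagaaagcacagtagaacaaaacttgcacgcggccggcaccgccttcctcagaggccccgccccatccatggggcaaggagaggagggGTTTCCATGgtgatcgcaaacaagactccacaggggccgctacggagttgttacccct
Dnali1 was at 4.62, 4.6 and 4.38 in cKO arrays, against 4.01, 4.04 and 4.39 in control arrays, a difference of 0.38. The groups overlapped, and all its control values and cKO replicate 3 lay below the filter level of 4.6. A match is a description of these letters and no evidence of binding. Rfx3, a factor of the X-box, was at 7.56, 6.58 and 6.63 in cKO arrays and at 6.39, 6.46 and 6.59 in control arrays, so its difference of 0.45 became 0.13 without cKO replicate 1.

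Several vascular genes lay the other way. Of 29 tested genes of endothelial cells and pericytes, 6 were lower (20.7%) and 0 higher at an unadjusted p under 0.05, beside 3.58% and 2.32% of all genes, and 5 (17.2%) were below all control arrays, beside 8.72%. Their median difference was -0.09, and -0.03 without cKO replicate 1. Without that array 5 of 29 were lower at p under 0.05, beside 3.21% of all genes. The signs of the whole list were then closer to even, with 17 negative and 12 positive. Besides Edn1, Emcn, an endothelial sialomucin of veins and capillaries, was at 6.61, 6.75 and 6.32 in cKO arrays and at 6.91, 7.16 and 6.88 in control arrays. Its difference was -0.42 with cKO replicate 1 and -0.45 without it. Higd1b, a pericyte gene, was at 6.78, 6.87 and 6.64 in cKO arrays, against 7.02, 7.08 and 7.03 in control arrays (-0.28). Tek, the angiopoietin receptor TIE2, was at 7.14, 7.15 and 6.99 in cKO arrays, against 7.27, 7.39 and 7.46 in control arrays (-0.28). Eng, a co-receptor for TGF-beta, had a difference of -0.26. Among the defining markers of endothelium, Cldn5, a tight junction protein, had a difference of -0.13, and of 0.02 without cKO replicate 1. Flt1, a VEGF receptor, was at 8.92, 9.02 and 8.88 in cKO arrays and at 9.18, 9.05 and 8.92 in control arrays by its probe set of the highest mean, with overlap, and had a difference of 0.12 by the tested probe set. At 4 weeks the list had a median of -0.11, with differences of -0.11 for Edn1, 0.17 for Emcn and 0.16 for Higd1b.

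Subunits of oxidative phosphorylation were slightly lower in many members. Of 50 tested, 46 had a negative difference and 20 (40%) were below all control arrays, beside 8.72% of all genes. At an unadjusted p under 0.05 only 2 were lower (4%), near the 3.58% of all genes, and 0 were higher. The median difference was -0.08, with array medians of -0.11, -0.07 and -0.08 in cKO arrays and of 0.02, -0.04 and 0.01 in control arrays, so that the groups did not overlap but differed by little. Ndufv2, a core subunit of complex I, was at 11.14, 11.19 and 11.25 in cKO arrays and at 11.36, 11.34 and 11.44 in control arrays (-0.19). Ndufs7, another core subunit, was at 11.46, 11.25 and 11.34 in cKO arrays, against 11.57, 11.50 and 11.55 in control arrays (-0.19). Without cKO replicate 1 the median was -0.07 with 42 of 50 negative. Cytosolic ribosomal proteins had 26 of 30 genes negative and a median of -0.05. These subunits share arrays and often vary together, so their number is no count of independent events.

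Transcripts retained in the nucleus or rich in introns had a median of 0.14, with 21 of 26 positive and 6 (23.1%) above all control arrays, beside 5.70% of all genes. Their array medians were 0.12, 0.19 and 0.22 in cKO arrays, against 0.14, -0.03 and -0.10 in control arrays. Malat1, a nuclear long noncoding RNA, was at 10.6, 10.4 and 10.8 in cKO arrays and at 10.3, 9.89 and 9.78 in control arrays, a difference of 0.62. Nktr, a cyclophilin with a long intron-rich transcript, was at 4.90, 5.03 and 5.55 in cKO arrays and at 5.16, 4.13 and 4.25 in control arrays, with overlap and a difference of 0.65. The list's median was -0.30 at 4 weeks. Control replicates 2 and 3 were also the lowest arrays in Ddx6, Ago2, Atp2b2 and Zeb2, but the order of the other arrays differed. In these genes all cKO arrays lay above control replicate 1. In the medians of the list cKO replicate 1 lay below it, at 0.12 against 0.14. Atp2b2, a plasma membrane calcium pump, was at 8.80, 8.53 and 8.83 in cKO arrays, against 8.44, 7.86 and 7.48 in control arrays. This was a difference of 0.79 by the tested probe set, whereas its other probe sets had differences of 0.06 and 0.09. Atp2b2 had a difference of -0.71 at 4 weeks, and Ddx6 one of -0.59. The part of RNA processing in these differences was not tested.

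Of the glial and immune lists, the microglial and interferon genes had their highest values in 1 control array. Microglial genes had a median of -0.12, with 19 of 23 negative and 0 at an unadjusted p under 0.05 either way. By array they stood at 0.01, -0.20 and -0.15 in cKO arrays and at -0.09, -0.21 and 0.35 in control arrays, so that only control replicate 3 was high. Interferon and antigen presentation genes had a median of -0.27, with array values of -0.43, -0.23 and -0.05 in cKO and of -0.25, -0.29 and 0.51 in control. For example H2-Aa, a class II antigen-presenting molecule, was at 6.20, 6.73 and 7.0 in cKO arrays and at 6.75, 6.79 and 7.99 in control arrays. Astrocyte genes had a median of 0.00, reactive glia of -0.00 and oligodendrocytes of -0.04. Osmr, the oncostatin M receptor, induced in reactive astrocytes, was at 5.67, 5.41 and 5.47 in cKO arrays, against 5.74, 5.98 and 6.01 in control arrays. Its difference was -0.39 with cKO replicate 1 and -0.47 without it.

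Feeding peptides and their receptors, of interest because the study is on body weight, had 0 of 30 genes higher and 3 lower (10%) at an unadjusted p under 0.05, beside 2.32% and 3.58% of all genes. Of the list, 2 genes lay above all control arrays and 5 (16.7%) below them, beside 5.70% and 8.72% of all genes. Gal, galanin, was at 6.11, 6.30 and 6.47 in cKO arrays, against 6.67, 6.87 and 6.51 in control arrays. Galanin stimulates feeding, and its difference was -0.39. Adcyap1, which encodes PACAP, was at 4.98, 5.28 and 5.29 in cKO arrays and at 5.58, 5.44 and 5.73 in control arrays (-0.41). Pmch, melanin-concentrating hormone, was at 5.79, 5.59 and 5.40 in cKO arrays and at 6.01, 5.91 and 5.81 in control arrays (-0.31). In these 3 genes the groups were apart. Lepr, the leptin receptor, had a difference of -0.07. Of the 18 measured genes that the study names, which were chosen by it on arrays of this series, Pmch was the 1 at p under 0.05. This was 5.56% lower, near the 3.58% of all genes, and 0 were higher. Hsp90aa1, a chaperone, was at 12.19, 12.09 and 12.36 in cKO arrays, against 12.23, 12.03 and 11.89 in control arrays, and Nts, neurotensin, had a difference of 0.05. Genes of fatty acid metabolism had 0 of 36 higher and 2 lower (5.56%), Scd3 and Scd1, with a median of 0.01, and cholesterol genes had 1 of 22 higher (4.55%), Sqle, squalene epoxidase (0.20). These shares were near those of all genes, 2.32% higher and 3.58% lower.

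The remaining lists had medians between -0.11 and 0.12. Glucocorticoid-induced genes had 13 of 18 negative, a median of -0.10 and 1 lower (5.56%) at an unadjusted p under 0.05, a share near the 3.58% of all genes. That gene was Klf9, a transcription factor induced by glucocorticoids and thyroid hormone, at 6.02, 5.50 and 6.37 in cKO arrays, against 6.42, 6.39 and 6.47 in control arrays. The groups were apart at a difference of -0.46, but cKO replicate 3 nearly reached the controls. Of p53 targets, Sesn1, a sestrin of the stress response, was at 8.18, 8.05 and 8.02 in cKO arrays and at 7.76, 7.81 and 7.81 in control arrays. All cKO values of Sesn1 were above control, with a difference of 0.29, whereas Gadd45a, a growth arrest gene of the same list, had one of -0.44. Heat shock genes divided likewise. Hspa2 had a difference of 0.48, and of 0.30 without cKO replicate 1, and Hsph1 one of 0.20. Cryab, a small heat shock protein of glia, was at 10.88, 11.16 and 11.03 in cKO arrays and at 11.38, 11.46 and 11.23 in control arrays, a difference of -0.33. Of the synaptic vesicle genes, Syt1, the calcium sensor of transmitter release, was at 8.78, 8.13 and 8.45 in cKO arrays, against 7.84, 7.45 and 7.80 in control arrays. Its difference of 0.76 was 0.59 without cKO replicate 1, and it was -0.34 at 4 weeks. In the circadian clock, Arntl, the activator BMAL1, had a difference of 0.31, and Dbp, an output gene of the clock, one of -0.21. Leptomeningeal genes had a median of -0.00 at 8 weeks and of -0.46 at 4 weeks. Of these, Igfbp2, a binding protein of insulin-like growth factors, was at 8.39, 8.47 and 8.5 in cKO arrays, against 8.82, 8.91 and 8.94 in control arrays (-0.44).

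**Figure D4:**
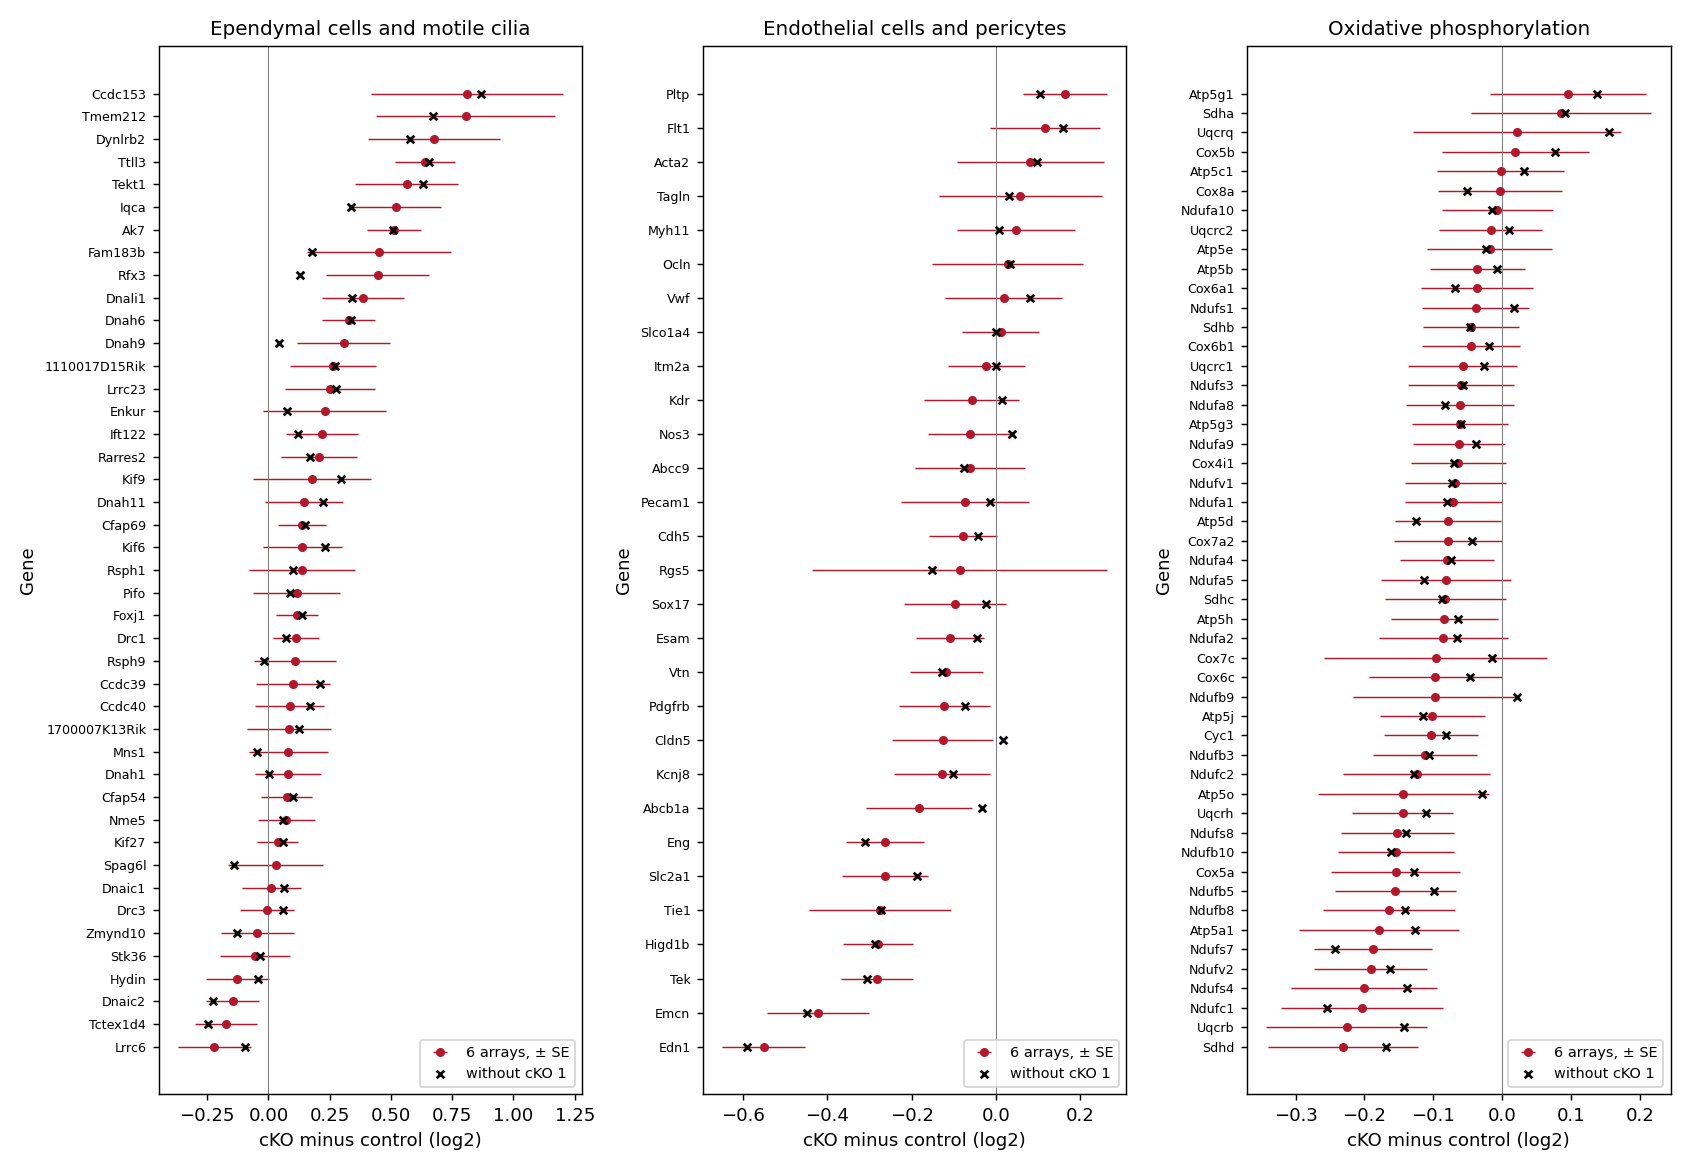
Difference of cKO minus control (log2, horizontal axis) for each tested member of the cilia, vascular and oxidative phosphorylation lists. Red points give the estimate of 6 arrays, with bars of ± SE from the fit of 12 arrays labelled hippocampus, and crosses the estimate without cKO replicate 1. Most cilia genes lie to the right of 0 (36 of 43), most vascular (21 of 29) and oxidative phosphorylation genes (46 of 50) to the left. Without cKO replicate 1 these counts were 34, 17 and 42.

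The difference at 8 weeks was set against that at 4 weeks, when other mice with the same treatments were used, to ask whether it changed with time. By limma's interaction test 0 of 14628 genes passed the FDR of 15% (0%), with a lowest adjusted p of 0.577 and 1168 genes at an unadjusted p under 0.05. Leaving out 1 array, 4-week cKO replicate 1, gave 219 genes, so this count rests on that array. Without 8-week cKO replicate 1 it was 0, with 1003 at an unadjusted p under 0.05. The gene with the lowest interaction p was Ttll3, whose difference was 0.64 at 8 weeks and -0.46 at 4 weeks. Zfp266, a zinc finger protein, was at 6.73, 6.77 and 6.55 in cKO arrays and at 6.38, 6.39 and 6.41 in control arrays of 8 weeks. Its difference was 0.29 at 8 weeks and -0.54 at 4 weeks. Lifr, Krt222 and Medag, lower in cKO at 8 weeks, had differences of 0.14, 0.16 and 0.26 at 4 weeks.

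Set against the other tissues at 8 weeks, 0 of 12964 genes differed from the cortex in their change (0%) and 0 of 14542 from the hypothalamus (0%) at the same FDR, with lowest adjusted p of 0.914 and 0.269 by limma and 597 and 1291 genes at an unadjusted p under 0.05. For the hypothalamus, leaving out hypothalamus cKO replicate 3 gave 307 genes and leaving out control replicate 1 of the arrays labelled hippocampus gave 3. Edn1, with a difference of -0.55 here, had differences of 0.20 in cortex and 0.04 in hypothalamus, and Scd3 of 0.04 and 0.06. Ak7 had a difference of 0.01 in cortex and 0.34 in hypothalamus. Ddx6 had one of 0.64 in cortex and -0.10 in hypothalamus. The microglial gene Itgax, an integrin of phagocytic cells, had differences of 0.17 in cortex and 1.7 in hypothalamus, whereas it was at 5.18, 5.06 and 4.92 in cKO arrays and at 5.27, 5.26 and 5.34 in control arrays here. Since the markers of these arrays differ from those of the label, the comparison of tissues is one of the arrays as labelled.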

How the data were processed

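RNA of single mice was hybridised to Affymetrix mouse expression arrays. The values deposited by the authors are on a log2 scale, summarised by RMA within a tissue (version not given), and were used unchanged. Of 45101 probe sets, 34945 have 1 gene, 932 several, 9160 none and 64 are controls. Detection calls were not used here. Probe sets whose third-highest value over the 12 arrays labelled hippocampus reached 4.6 were kept, and each gene was represented by its most variable probe set; 428 tested probe sets name several genes and were counted in no list. Markers are given by the probe set of the highest mean over 36 arrays. Differences came from limma 3.58.1 (R 4.3.3) with 1 fit of 4 groups, two-sided, adjusted over all tested genes at an FDR of 15%. With 3 arrays against 3, an exact permutation test cannot go below 0.1. The members, the 43 gene lists (960 genes) and the tests were chosen with earlier results of these data known. Named genes are the 12 lowest p in each direction, the 8 largest differences with groups apart, up to 3 members per list, the microRNA machinery and the 5 lowest interaction p; others were chosen after their values were seen. The fit was tested on simulated data. Alternatives changed filter, probe set, scaling, variance model, test, threshold, block and arrays.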

Additional observations from a re-analysis of the deposited data

How the results depend on the processing

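The count of 0 genes at an FDR of 15% held under other filters, scalings, variance models, blocks and thresholds of 5% and 25%. It became 3 with array weights (Scd3, Ddo and Edn1, adjusted p = 0.113 each by limma, with cKO replicate 1 weighted 0.409) and 1 by the methods' t-test after Benjamini-Hochberg (Kdm6a). That test gave 344 genes higher and 644 lower before adjustment. Leaving out 1 array gave 0 to 1 (Scd3, without 4-week cKO replicate 3). At an unadjusted p under 0.05, leaving out 1 array gave 189 genes higher (without control replicate 2) to 588 (without 4-week cKO replicate 3) and 343 lower (without control replicate 3) to 645 (without 4-week cKO replicate 3). All probe sets gave 656 higher and 913 lower, array weights 653 and 848, and the 6 arrays of 8 weeks alone 512 higher. Leaving out 1 array gave 0 to 219 genes for the interaction with time, with 805 to 1928 at an unadjusted p under 0.05, and 0 to 307 for the difference from hypothalamus. The replicate block gave 0 called genes, 410 higher and 467 lower, and 0 for the interaction; the numbers do not pair the arrays (correlations of deviations 0.0235, 0.00562 and -0.0427). Blocking on whether the animal number was above 550 gave 251 and 395, where each array labelled hippocampus has its own animal number. Choosing filter and probe sets again without cKO replicate 1, an alternative added after seeing the data, gave 0 called, 266 higher and 474 lower. Differences turned sign with another probe set or filter in Ddo (-0.015), Tada1 (-0.063), Ralgapa1 (-0.13), 1700094D03Rik (-0.029), Zfp207 (-0.18), Ppt1 (-0.062), Pigq (0.014), Aplp2 (0.12), Ddx6 (-0.11), Tnrc6a (0.064), Emx1 (0.15) and Zfp266 (-0.053); the cause was not tested. Of the medians of gene lists, 614 of the alternatives stayed within 1 SD of the arrays and 117 did not. With 3 arrays per group, of which 1 cKO array differs in its markers, the number of arrays limits what could be called.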
